A study of Mus musculus with 15 samples.

Results

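Transcript levels of 7 epidermal kallikrein genes (Klk5, Klk6, Klk7, Klk8, Klk10, Klk13 and Klk14) and of Spink5 were examined by RNA-Seq in mouse conjunctiva. Spink5 encodes an inhibitor of some, not all, epidermal kallikreins. The genes were taken by their symbols from the table of counts. The symbols were chosen with earlier results of these data known. Of 55487 genes listed, 8 carried these symbols, and all 8 were among the 19006 genes with enough counts to be tested (at least 10 counts in at least 5 libraries). The 15 libraries formed 3 groups of 5. The methods mention 2 outliers without saying which they were, and no library was left out here. All came from wild-type female mice aged 9 to 12 weeks, of the strain written BALC/c in the labels and BALB/c in the methods. All mice had been sensitized through the ear skin with OVA (ovalbumin, the model allergen) and MC903 (calcipotriol, a vitamin D analog that induces dermatitis), with MC903 given at 2.5 nmol per day for 7 days. Their eyes were challenged daily from day 18 to day 24 with PBS (PBS group) or with 250 μg of OVA per drop (the other groups). Of the OVA-challenged mice, those of the isotype group were given a control antibody and those of the anti–IL-4Rα group an antibody that blocks the IL-4 receptor, with a dose of 25 mg/kg for either. No antibody is named for the PBS group, so that OVA and the isotype antibody cannot be told apart in the first comparison. All groups carried the skin sensitization, and no library came from unsensitized mice. The titles number the libraries as mice, but no source states outright that each was a separate animal. P-values then measure the spread between libraries. Library totals ran from 48622246 to 87745024 estimated counts.

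Kallikreins of this family are secreted serine proteases that are made as inactive precursors and activate each other in a cascade. In epidermis, KLK5, KLK7 and KLK14 cut the proteins of corneodesmosomes, the junctions that hold cornified cells together until they are shed. Spink5 encodes LEKTI, a multidomain inhibitor that holds KLK5, KLK7 and KLK14 in check. Its loss in Netherton syndrome leads to unrestrained proteolysis, a defective barrier and severe allergy. KLK5 and KLK14 can also activate PAR2, a receptor encoded by F2rl1 that is linked to itch and inflammation. The comparison of the isotype and PBS groups asks what ocular allergen challenge does to these transcripts in sensitized mice. The comparison of the anti–IL-4Rα and isotype groups asks what blocking the shared receptor chain of IL-4 and IL-13 does during that challenge.

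Markers of conjunctival mucosa were present in every library. Krt13, the most abundant gene of that list, ranged from 554 to 1179 CPM (counts per 1000000 counts of a library scaled with TMM factors) and Muc5ac, the gel-forming mucin of goblet cells, from 994 to 2024 CPM. The tissue also held transcripts of keratinized skin and of glands. Krt10, a keratin of cornifying epidermis, ranged from 3943 to 8576 CPM, and Scd1, abundant in the meibomian glands of the lid, from 3121 to 10544 CPM. In bulk tissue, fewer cells of a type and less RNA per cell cannot be told apart.

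The kallikrein genes lie next to each other on chromosome 7, all on the plus strand, whereas Spink5 (ENSMUSG00000055561) lies on another chromosome. On GRCm38, the order of the members is Klk14 (ENSMUSG00000044737, chr7:43690418-43695536), Klk13 (ENSMUSG00000054046, chr7:43712567-43727534), Klk10 (ENSMUSG00000030693, chr7:43781035-43785410), Klk8 (ENSMUSG00000064023, chr7:43797577-43803826), Klk7 (ENSMUSG00000030713, chr7:43811294-43816359), Klk6 (ENSMUSG00000050063, chr7:43824499-43832030) and Klk5 (ENSMUSG00000074155, chr7:43841971-43851181). Klk12 and Klk11 sit between Klk13 and Klk10, and Klk9 sits between Klk10 and Klk8. These 10 genes span 161 kb, and the largest gap, of 41.4 kb, lies between Klk13 and Klk12. A noncoding gene on the minus strand, 2310002F09Rik, overlaps Klk14, Klk13, Klk10 and Klk8. Whether counting used strand is not stated, but this gene reached at most 1.88 CPM in any library.

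Promoter bases are shown for Klk6 and Klk13, which among the 8 genes had the largest log2 fold changes in both comparisons with the isotype group, and for Klk10, a gene of the same cluster that was not called. RefSeq promoters on GRCm38.p6 were searched for the 7 kallikreins and for Klk9, Klk11 and Klk12, and the 250 bases before each start were searched on both strands. The motifs were TTCNNNNGAA, the spacing bound by STAT6 downstream of IL-4Rα, TTCNNNGAA, the spacing of other STAT sites, TGANTCA of AP-1 and the TATA box TATAAA. A last one, TTAAAA, was added after the promoters were read. Klk6 has starts at 43824544 and 43825450, both inside the annotated gene. Capitals mark the matches.
Klk6, first start, chr7:43824294-43824543, plus strand: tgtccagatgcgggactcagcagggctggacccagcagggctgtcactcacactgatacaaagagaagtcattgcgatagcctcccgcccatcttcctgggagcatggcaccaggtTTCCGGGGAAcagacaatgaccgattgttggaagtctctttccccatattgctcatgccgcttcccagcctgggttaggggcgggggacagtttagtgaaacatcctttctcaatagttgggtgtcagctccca
Klk6, second start, chr7:43825200-43825449, plus strand: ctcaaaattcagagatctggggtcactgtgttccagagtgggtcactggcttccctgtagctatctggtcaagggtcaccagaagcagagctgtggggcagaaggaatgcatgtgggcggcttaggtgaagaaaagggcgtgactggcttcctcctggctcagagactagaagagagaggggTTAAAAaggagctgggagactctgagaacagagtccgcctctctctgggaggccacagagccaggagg
Klk13, chr7:43712317-43712566, plus strand: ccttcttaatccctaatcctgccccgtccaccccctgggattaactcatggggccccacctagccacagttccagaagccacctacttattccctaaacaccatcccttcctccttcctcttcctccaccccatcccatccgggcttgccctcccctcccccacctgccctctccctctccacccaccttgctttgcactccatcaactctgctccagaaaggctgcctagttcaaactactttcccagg
Klk10, chr7:43780804-43781053, plus strand: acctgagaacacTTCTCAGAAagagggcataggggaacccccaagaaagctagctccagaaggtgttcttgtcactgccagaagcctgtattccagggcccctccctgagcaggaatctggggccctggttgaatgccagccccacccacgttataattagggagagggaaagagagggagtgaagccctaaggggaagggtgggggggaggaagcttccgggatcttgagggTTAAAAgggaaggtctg

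The match TTCCGGGGAA, of the STAT6 spacing, starts at base -134 from the first start of Klk6. It was the only match of this motif in the 12 promoters of the 10 neighboring genes, and 5.85% of 32851 mouse promoters hold one. The match TTCTCAGAA in the Klk10 promoter has the other STAT spacing, found in 7.02% of all promoters and in no other of these 12. TTAAAA occurred in 4 of the 12, in front of Klk6 (second start), Klk8, Klk10 and Klk11, and in 17.7% of all promoters. TATAAA and TGANTCA occurred in 0 of the 12, beside 12.4% and 6.75% of all promoters. The Klk13 window holds none of the 5 motifs, and the matches shown do not overlap. A match describes letters only, and no binding was measured.

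Per length (CPM per kb of exon), Klk10 had the highest level of the 8 genes in every group. In the PBS group it stood at 333 ± 54.1 (SD, n = 5), followed by Klk7 at 136 ± 18 and Spink5 at 103 ± 8.77. The ranges of these 3 genes did not overlap. Below them came Klk5 at 71.3 ± 9.54, Klk8 at 58 ± 11.2, Klk6 at 48 ± 9, Klk14 at 40.8 ± 9.05 and Klk13 at 40 ± 10.2. Each of these last 5 overlapped its neighbor in the order, and Klk14 exceeded Klk13 in 3 of 5 libraries. In the isotype group Klk6 came after Klk10 and Klk7, at 136 ± 33.4. It overlapped Klk7 (190 ± 32.1) but lay above Spink5 at 88.6 ± 8.97 in 5 of 5 libraries, with no overlap. In the anti–IL-4Rα group Klk6 stood again below Klk8 by its mean (40.2 ± 1.98 and 46.3 ± 10.6), but their ranges overlapped and the order held in 3 of 5 libraries.

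Klk6, Klk13 and Klk7 were higher in the isotype than in the PBS group. These genes and Klk8 were lower with anti–IL-4Rα than with isotype. Klk5, Klk10, Klk14 and Spink5 passed the test of neither comparison. Klk6, a trypsin-like protease known from brain and skin and also called neurosin, differed most. Its level in PBS libraries 1 to 5 was 83, 67.8, 89.1, 68.8 and 54.6 CPM. In the isotype libraries it was 158, 190, 290, 183 and 209 CPM, and in the anti–IL-4Rα libraries 62.2, 59.8, 58.1, 58.4 and 65.3 CPM. Every isotype library lay above every library of the other groups, while the PBS and anti–IL-4Rα libraries overlapped. Klk6 rose 2.84-fold with OVA and isotype, which is 1.50 on the log2 scale (SE 0.15, adjusted p = 0.000177). Its log2 fold change with anti–IL-4Rα against isotype, -1.76 (SE 0.15, adjusted p = 3.28e-05), means that the isotype level was 3.39 times the treated level.

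Klk13 followed the same order at a smaller size. It was at 126, 75.5, 107, 74.8 and 75.8 CPM in the PBS libraries, at 139, 162, 232, 132 and 142 CPM in the isotype libraries, and at 80.1, 62.7, 87.7, 76.9 and 73.8 CPM in the anti–IL-4Rα libraries. The lowest isotype library (132 CPM) lay above the highest PBS library (126 CPM) by a narrow margin, and the PBS and anti–IL-4Rα groups overlapped. Klk13 rose in the isotype group (log2 fold change 0.81, SE 0.18, adjusted p = 0.0097) and fell with anti–IL-4Rα (-1.08, SE 0.18, adjusted p = 0.00428). This fall was not called with the basal epithelium score as a covariate (-0.74, SE 0.22, adjusted p = 0.293). That score is the mean log2 level of 7 basal epithelium genes. Of these, 3 were themselves called lower with anti–IL-4Rα, among them Krt14 (-0.75, SE 0.11, adjusted p = 0.00243), and 4 were not called. The covariate thus differs with the treatment, and a call lost with it cannot tell the gene's fall from that of the score.

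Klk7 encodes the chymotrypsin-like enzyme of the stratum corneum, which cuts corneodesmosin. Its level was 318, 255, 246, 240 and 233 CPM in the PBS libraries, 311, 393, 453, 320 and 325 CPM in the isotype libraries, and 175, 170, 225, 213 and 224 CPM in the anti–IL-4Rα libraries. PBS library 1 lay within the isotype range, and every anti–IL-4Rα library lay below every library of the other groups. Klk7 rose with OVA and isotype (log2 fold change 0.48, SE 0.12, adjusted p = 0.0193) and fell with anti–IL-4Rα (-0.84, SE 0.12, adjusted p = 0.00221). The rise rested in part on isotype library 3: without it the value was 0.38 (adjusted p = 0.0503). The fall was not called with the basal epithelium score as a covariate (-0.52, SE 0.13, adjusted p = 0.193).

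Klk8 encodes neuropsin, a trypsin-like protease of brain and skin. It was at 118, 91.9, 78.8, 73.6 and 84.9 CPM in the PBS libraries, at 102, 118, 165, 105 and 102 CPM in the isotype libraries, and at 57.8, 55.8, 89.3, 65.3 and 88.1 CPM in the anti–IL-4Rα libraries. PBS and isotype overlapped, and all anti–IL-4Rα libraries lay below all isotype libraries. Klk8 fell with anti–IL-4Rα (log2 fold change -0.73, SE 0.18, adjusted p = 0.0198). For isotype against PBS, the value was 0.41 (SE 0.18, adjusted p = 0.125). The fall missed the threshold without isotype library 3 (-0.58, adjusted p = 0.0549) and without anti–IL-4Rα library 1 (-0.67, adjusted p = 0.0526). It also missed it with only the 2 groups fitted (adjusted p = 0.0531), with the lacrimal score as a covariate (-0.64, adjusted p = 0.0577) and with the basal epithelium score as a covariate (-0.27, adjusted p = 0.611).

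**Figure D1:**
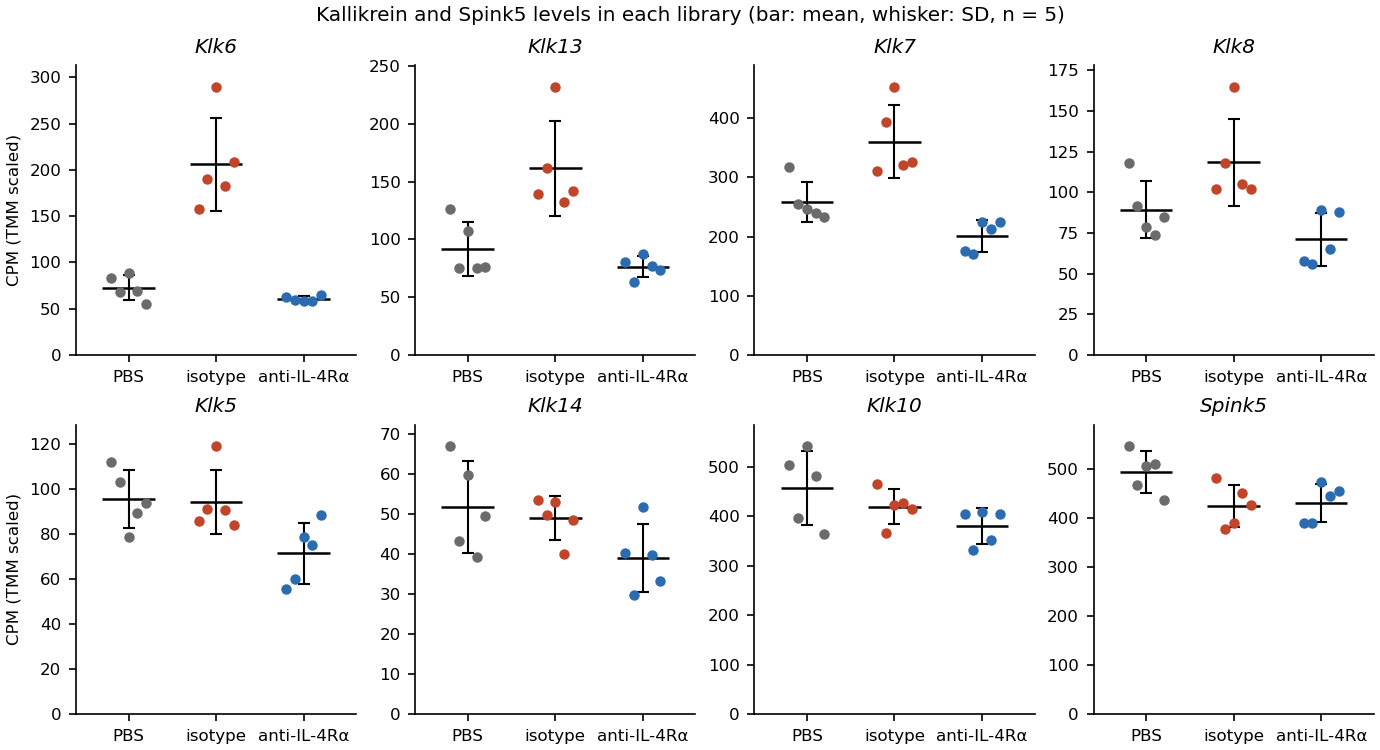
Level of each gene (CPM, scaled with TMM factors, axes from 0) in the 5 libraries of the PBS, isotype and anti–IL-4Rα groups. Points are libraries, bars are means and whiskers are SDs; the isotype libraries of Klk6 sit between 158 and 290 CPM, above all others, whereas the groups overlap for Klk10.

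The other kallikreins did not pass the test in any comparison. Klk5, the trypsin-like initiator of the epidermal cascade, had 95.2 ± 12.7 CPM in the PBS group, 94.2 ± 14.4 CPM in the isotype group and 71.4 ± 13.6 CPM in the anti–IL-4Rα group (SD, n = 5 each). Its log2 fold change was -0.02 (SE 0.14) for isotype against PBS, and it stood at -0.40 (SE 0.14, adjusted p = 0.0609) for anti–IL-4Rα against isotype. DESeq2 did call the latter (adjusted p = 0.0278), as did the main test without anti–IL-4Rα library 3 (adjusted p = 0.0492) or library 5 (adjusted p = 0.0456). Klk14, which can activate the Klk5 precursor and cut desmosomal cadherins, had 51.8 ± 11.5, 49 ± 5.48 and 39 ± 8.47 CPM in the same order of groups. Its value for anti–IL-4Rα against isotype was -0.33 (SE 0.16, adjusted p = 0.17), and it was called without anti–IL-4Rα library 3 (-0.45, adjusted p = 0.0478). Klk10, the most highly expressed, had 458 ± 74.3, 419 ± 35.4 and 380 ± 35.5 CPM. The 95% intervals of its log2 fold changes, -0.36 to 0.10 for isotype against PBS and -0.37 to 0.09 for anti–IL-4Rα against isotype, do not reach those of Klk6 or Klk13.

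Spink5, the inhibitor gene, was called in no comparison. Its level was 546, 467, 505, 510 and 437 CPM in the PBS libraries, 480, 376, 389, 451 and 426 CPM in the isotype libraries, and 389, 390, 472, 445 and 455 CPM in the anti–IL-4Rα libraries. All groups overlapped. On the log2 scale the difference between isotype and PBS was -0.22 (SE 0.08, adjusted p = 0.0904), and that between anti–IL-4Rα and isotype was 0.02 (SE 0.08, adjusted p = 0.885), with a 95% interval of -0.16 to 0.20 for the latter. Without isotype library 1, the lower level in the isotype group passed the threshold (-0.27, adjusted p = 0.0412).

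In all, 3 of 8 genes (Klk6, Klk13 and Klk7) were higher in the isotype than in the PBS group at an adjusted p under 0.05, where 9.53% of the 19006 genes tested were higher, and 0 of 8 were lower, where 7.49% of genes were. At an unadjusted p under 0.05, 4 were higher and 1, Spink5, was lower, beside 17.1% and 15.5% of all genes. DESeq2 also called 3 higher, beside 13% of all genes. The groups did not overlap for 2 of 8 genes, Klk6 and Klk13, with the isotype group higher, as for 6.85% of all genes. With anti–IL-4Rα against isotype, 4 of 8 genes (Klk6, Klk13, Klk7 and Klk8) were lower, where 8.13% of all genes were lower, and 0 of 8 were higher, where 6.73% were. At an unadjusted p under 0.05, 5 were lower and 0 higher, beside 16.9% and 15.9% of all genes, and DESeq2 called 5 lower, beside 11.2% of all genes. With the basal epithelium score as a covariate, only Klk6 was called lower, where 28 in place of 2826 genes were called. The groups did not overlap for the same 4 genes, as for 4.96% of all genes in that direction. The median log2 fold change of the 8 genes was 0.19 and then -0.57, beside -0.012 and 0.009 over all genes tested. Both comparisons share the isotype libraries, so that a high isotype group enters both.

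For anti–IL-4Rα against PBS, edgeR called 0 of 8 genes in either direction, where 2.28% of all genes were higher and 1.44% lower. At an unadjusted p under 0.05, 5 of 8 were lower and 0 higher, beside 11% and 12.1% of all genes. All 8 log2 fold changes were below 0, from -0.41 for Klk5 and Klk14 to -0.20 for Spink5, but with the basal epithelium score as a covariate those of Klk8 (0.07) and Klk13 (0.02) were not. DESeq2 called 1 of them lower, Klk5 (adjusted p = 0.0417), beside 3.83% of all genes. Without anti–IL-4Rα library 3, edgeR called Klk14 (-0.53, adjusted p = 0.0408). Klk7 was the only one of the 8 whose groups did not overlap, with 225 CPM in the highest anti–IL-4Rα library and 233 CPM in the lowest PBS library, and 6.1% of all genes had groups apart in this comparison. Klk7 stood at -0.36 on the log2 scale (SE 0.12, adjusted p = 0.105) and Klk6 at -0.26 (SE 0.15, adjusted p = 0.32).

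Along the chromosome, the genes that changed were not all side by side. Klk9, Klk8, Klk7 and Klk6 are consecutive, and each was called lower with anti–IL-4Rα. Klk13 was called too, but Klk12, Klk11 and Klk10, which separate it from Klk9, were not, and neither were Klk5 and Klk14 at the ends. Klk9 is a kallikrein of the epidermis that is not among the 8 genes. It had 36.1 ± 7.68, 87.8 ± 31.3 and 30.8 ± 6.49 CPM in the PBS, isotype and anti–IL-4Rα groups. Klk9 rose by 1.28 on the log2 scale with OVA and isotype (SE 0.21, adjusted p = 0.00256) and stood at -1.51 with anti–IL-4Rα against isotype (SE 0.21, adjusted p = 0.00168). With the basal epithelium score as a covariate, the latter was -0.92 (adjusted p = 0.132), and the calls of Klk7, Klk8 and Klk13 were lost too. Klk11 and Klk12 were at -0.07 (SE 0.12) and 0.00 (SE 0.15) in the first comparison and at -0.34 (SE 0.12, adjusted p = 0.0685) and -0.40 (SE 0.15, adjusted p = 0.0839) in the second. DESeq2 called both in the second (adjusted p = 0.0363 and 0.0494), as did edgeR without anti–IL-4Rα library 3 (0.0299 and 0.0262), and a replicate block called Klk12 (-0.42, adjusted p = 0.029). Whether fold changes differed between neighbors was not tested.

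**Figure D2:**
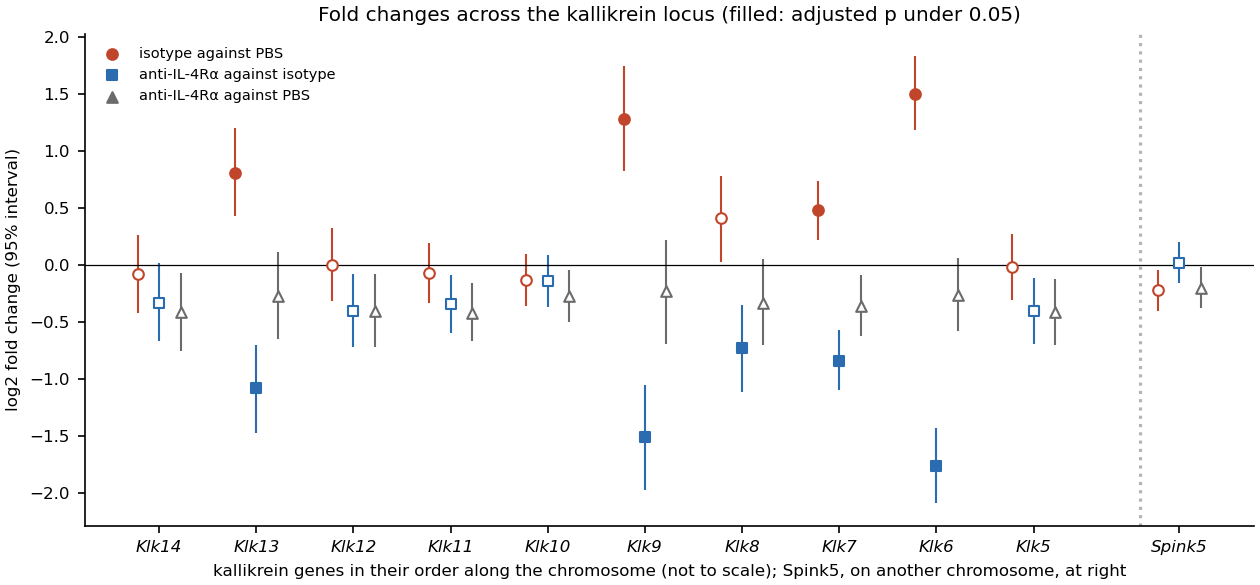
Log2 fold changes with 95% intervals (vertical axis) of 10 kallikrein genes in chromosomal order, and of Spink5, in each of 3 comparisons. Filled symbols passed an adjusted p under 0.05; Klk13, Klk9, Klk7 and Klk6 are filled in the first comparison, the same and Klk8 in the second, and none of those shown in the third.

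Of 19 other kallikrein genes listed, 4 had enough counts to be tested. Klk9 and Klk1 were higher in the isotype group and lower with anti–IL-4Rα, and Klk11 and Klk12 were not called. Over all genes tested, 9.53% were higher in the former and 8.13% lower in the latter. Over the alternatives, the count of 2 higher ran from 2 to 4 and that of 2 lower from 0 to 4. Klk1, the glandular kallikrein that releases kinins, was scarce at 0.418 ± 0.13 CPM in the PBS group, 3.86 ± 1.88 CPM in the isotype group and 1.19 ± 0.42 CPM in the anti–IL-4Rα group. With OVA and isotype it rose 9.23-fold, or 3.21 in log2 units (SE 0.38, adjusted p = 0.000418), and it stood at -1.69 with anti–IL-4Rα against isotype (SE 0.35, adjusted p = 0.0114), or at -1.17 (adjusted p = 0.448) with the basal covariate. Klk1 was also higher with anti–IL-4Rα than with PBS (1.52, SE 0.37, adjusted p = 0.0408), but this call was lost without any of the 5 PBS libraries (adjusted p = 0.0604 to 0.1), without isotype library 4 (0.0531), and without anti–IL-4Rα library 1 (0.0791), 2 (0.0728) or 5 (0.0828). It was also lost in a linear model on log2(FPKM + 1) (0.57, adjusted p = 0.173), with no filter (0.0565), and with the lacrimal (0.102) or basal (0.0827) covariate. The Klk1b genes are close copies of each other, and Klk1b1, Klk1b16 and Klk1b22 had no count in any library.

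Ratios within a library do not depend on how libraries are scaled, but they move with either gene. For isotype against PBS, Spink5 itself stood at -0.22 (SE 0.08, edgeR adjusted p = 0.0904), which enters every ratio of that comparison. The ratios were added after seeing the data, and they describe transcripts and not the activity of protease or inhibitor. Per length, Klk6 stood at 0.395 to 0.558 of the Spink5 level in the PBS libraries, at 1.04 to 2.36 of it in the isotype libraries and at 0.389 to 0.505 of it in the anti–IL-4Rα libraries. The isotype group lay apart from both others, which overlapped. The mean log2 ratio of Klk6 to Spink5 was higher by 1.71 in the isotype than in the PBS group and differed by -1.75 between anti–IL-4Rα and isotype (exact permutation test, two-sided p = 0.00794 for each, the smallest that 252 splits can give). The ratio of Klk7 to Spink5 ran from 1.19 to 1.47 in the PBS group, from 1.64 to 2.94 in the isotype group while anti–IL-4Rα libraries ranged from 1.1 to 1.24. Klk13 also had the isotype group apart from both others, with medians of 0.362, 0.697 and 0.36 of Spink5. For Klk10 the log2 ratio differed by 0.10 and -0.16 in the 2 comparisons (exact permutation p = 0.167 and 0.0635). With anti–IL-4Rα against isotype, it differed by -0.76 for Klk8 (exact permutation p = 0.00794), by -0.43 for Klk5 and -0.37 for Klk11 (0.0159 each), by -0.43 for Klk12 (0.0238) and by -0.37 for Klk14 (0.0476). Of these, only Klk8 was called by its level. For isotype against PBS, where its level was not called (0.41, SE 0.18), the ratio of Klk8 was higher by 0.62 (0.0159). For anti–IL-4Rα against PBS, that of Klk11 differed by -0.22 (0.0397). The differences of Klk7 (0.69 and -0.85), Klk13 (1.04 and -1.08) and Klk9 (1.46 and -1.50) in the 2 comparisons with the isotype group had the smallest p (0.00794 each). No other difference had a p under 0.05. These p-values are not adjusted, and 30 such differences were computed over 10 kallikreins and 3 comparisons.

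**Figure D3:**
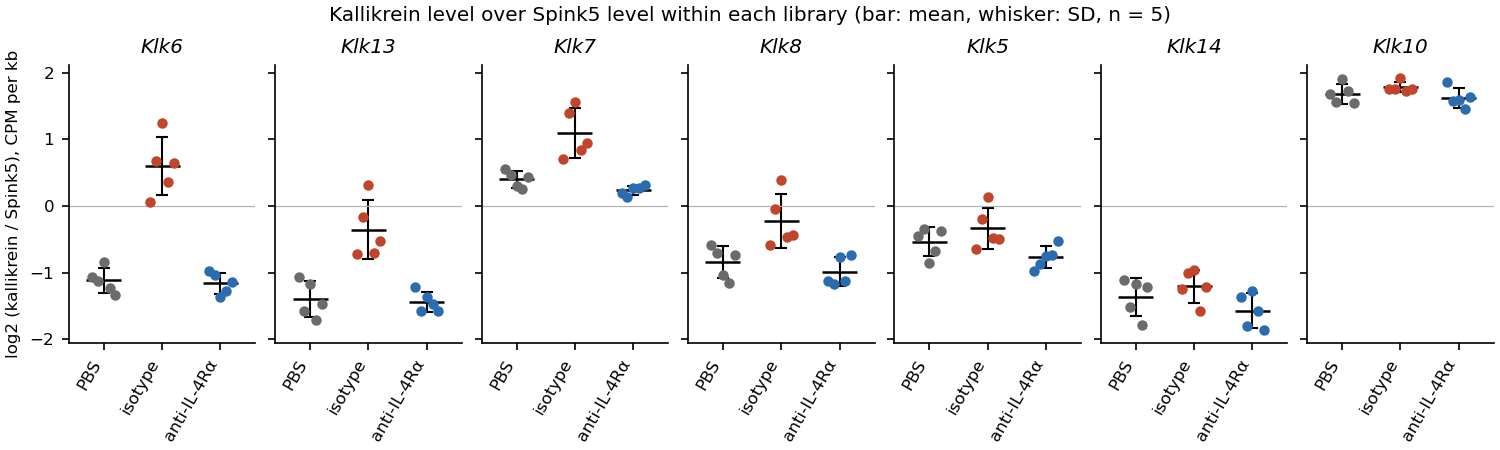
Log2 ratio of each kallikrein to Spink5 (both in CPM per kb of exon) within each library, by group. Points are libraries, bars are means and whiskers SDs, and the gray line marks equal levels; for Klk6 the mean is -1.12 with PBS, 0.59 with isotype and -1.16 with anti–IL-4Rα.

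Shares of the kallikrein pool were described and not tested. A share can be lower only because others are higher, and the level of Klk10 itself was not called. Of the summed per-length level of the 7 kallikreins, Klk10 took 45.7% ± 3.99 in the PBS group, 34.7% ± 4.76 in the isotype group and 47.2% ± 2.59 in the anti–IL-4Rα group (SD, n = 5). Klk6 took 6.57% ± 0.608, 15.2% ± 2.04 and 6.89% ± 0.707. The isotype range of Klk6, from 12.4% to 17.8%, lay above the highest share in the other groups, 7.86%. The sum itself was 728 ± 93.4, 888 ± 107 and 587 ± 59.1 CPM per kb.

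Within the groups, some kallikreins varied together. With group means removed, the log2 levels of Klk7 and Klk8 had a Pearson r of 0.92 over 15 libraries, and those of Klk5 and Klk8 an r of 0.90. Klk5 and Klk10 had an r of -0.04, and Klk6 and Spink5 also -0.04. The median over 28 pairs was 0.43. These are descriptions of libraries that share a tissue make-up and a scaling. The genes most like the mean of the 7 kallikreins by this measure were Teddm3 (r = 0.974), Lrp10 (0.943), Lce3c (0.935), Olah (0.929), Glrx (0.928), Nkpd1 (0.926), Klk11 (0.925), Klk9 (0.919), Gna15 (0.917) and Lce3f (0.916). Lce3c and Lce3f encode late cornified envelope proteins. Those most like Spink5 were Atp6v0a4 (0.926), A930012L18Rik (0.905), Vwa2 (0.901), Mier2 (0.887) and Muc15 (0.881), and no gene was in both lists.

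The proteins that kallikreins cut, and those that cut or block them, were examined as lists. Of 16 corneodesmosome and desmosome genes tested, 2 were higher in the isotype than in the PBS group, and 8 were lower and 0 higher with anti–IL-4Rα than with isotype. Over all genes tested, 9.53% were higher in the former and 8.13% lower in the latter. The medians of the list were 0.11 and -0.34, beside -0.012 and 0.009 over all genes. The count of 8 lower ran from 0 to 12 over the 10 alternatives and from 2 to 11 with 1 library left out. It was 2 without isotype library 3, 3 with only the 2 groups fitted and 0 with the basal epithelium covariate. Dsg1c, a desmoglein 1 gene, had log2 fold changes of 3.45 (SE 0.41, adjusted p = 0.000429) and -3.02 (SE 0.40, adjusted p = 0.00113), and Dsg1b, another copy, 0.38 (SE 0.08, adjusted p = 0.01) and -0.51 (SE 0.08, adjusted p = 0.00428). With the basal epithelium score as a covariate, neither was called with anti–IL-4Rα against isotype (-2.72, adjusted p = 0.186, for Dsg1c and -0.36, adjusted p = 0.278, for Dsg1b). Reads of the similar Dsg1 copies may be hard to assign. Dsg1c was scarce, with means of 0.779, 8.53 and 1.06 CPM in the PBS, isotype and anti–IL-4Rα groups. Dsp, encoding desmoplakin and the most abundant of the list, was at 0.00 and -0.22 (SE 0.09 each) and was not called. Of 10 genes listed as other proteases and crosslinking enzymes of the cornified layer, 3 were lower with anti–IL-4Rα. They were Tgm3 (-0.83, SE 0.19, adjusted p = 0.0168), Casp14 (-0.80, SE 0.19, adjusted p = 0.0193) and Tgm1 (-0.64, SE 0.16, adjusted p = 0.0246). Only Ctss was called higher in the isotype than in the PBS group (1.25, SE 0.20, adjusted p = 0.00228), a count of 1 that ran from 1 to 4 over the alternatives. Ctss is not confined to the cornified layer, and the cells that its transcripts came from were not tested. The call of Casp14 was lost without isotype library 2 or 3 (adjusted p = 0.0505 and 0.0549) and without anti–IL-4Rα library 1 or 4 (0.0503 and 0.0504). That of Tgm1 was lost without isotype library 2 or 3 (0.0627 and 0.0655) and without anti–IL-4Rα library 1 or 2 (0.0626 and 0.0555). With only the 2 groups fitted, Tgm3 (0.0547), Casp14 (0.0598) and Tgm1 (0.0663) were not called. Casp14 and Tgm1 were not called with the lacrimal covariate (0.0565 and 0.0799), nor was Tgm1 with a replicate block (0.0546). With the basal epithelium covariate, the value was -0.47 for Tgm3 (adjusted p = 0.508), -0.39 for Casp14 (0.571) and -0.25 for Tgm1 (0.632).

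Inhibitor genes other than Spink5 were examined as well. Over all genes tested, 9.53% were higher and 7.49% lower in isotype against PBS. With anti–IL-4Rα against isotype, 6.73% were higher and 8.13% lower. Of 6 other Spink genes tested, Spink4, a goblet cell product, rose with OVA and isotype (log2 fold change 2.30, SE 0.39, adjusted p = 0.00284) and fell with anti–IL-4Rα (-2.93, SE 0.42, adjusted p = 0.00168), and the other 5 were not called. Spink4 was scarce, at 0.215 ± 0.0698, 1.07 ± 0.635 and 0.133 ± 0.0634 CPM in the PBS, isotype and anti–IL-4Rα groups (SD, n = 5). The fall of Spink4 was not called with the basal epithelium score as a covariate (-2.38, adjusted p = 0.217). Of 11 other epithelial protease inhibitors, 1 was higher and 1 lower in each of these comparisons. In anti–IL-4Rα against isotype, both counts were 0 without isotype library 3 and with only the 2 groups fitted. In isotype against PBS, the lower gene was Serpina12 (-0.56, SE 0.15, adjusted p = 0.0222). Its call was lost with a replicate block (0.0533) and without PBS library 2 (0.0573) or isotype library 2 (0.053). Wfdc12, a whey acidic protein inhibitor, was higher in the isotype group (2.45, SE 0.38, adjusted p = 0.00173) and at -0.35 (SE 0.35) for anti–IL-4Rα against isotype. Cst6, encoding cystatin M/E and the most abundant of these inhibitors, was not called. Of 16 genes for activating proteases and the PAR2 receptor, 2 were higher in the isotype group, beside 9.53% of all genes. They were Plau (0.65, SE 0.14, adjusted p = 0.0101), which encodes urokinase, and Plaur (1.28, SE 0.26, adjusted p = 0.00694), which encodes its receptor. With anti–IL-4Rα against isotype, 2 were higher, Prss8 and Hpn, and 1 was lower, beside 6.73% and 8.13% of all genes. The count of 1 lower ran from 0 to 5 over the alternatives and from 0 to 7 with 1 library left out. The lower gene was Tmprss13 (-0.21, SE 0.07, adjusted p = 0.0488), which is named after its value was seen. Tmprss13 lost its call in 7 of 10 alternatives and without 11 of 15 libraries (adjusted p = 0.0514 to 0.871). Prss8, encoding prostasin, stood at 0.34 (SE 0.08, adjusted p = 0.0215) and lost its call without isotype library 2 (0.0564), 3 (0.0588) or 5 (0.0516). It was also not called with only the 2 groups fitted (0.0626) or with the lacrimal (0.0679) or basal epithelium covariate (0.20, adjusted p = 0.546). Hpn, encoding hepsin, stood at 0.55 (SE 0.16, adjusted p = 0.0411) and lost its call without PBS library 1 or 4, any of isotype libraries 2 to 5, or anti–IL-4Rα library 1, 2 or 4 (0.0507 to 0.1). It also lost its call in 5 of 10 alternatives (0.0539 to 0.559). St14, encoding matriptase, an activator of kallikrein precursors, was at 0.16 and -0.12 (SE 0.07 each) and was not called.

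Keratinocyte lists differed in their counts. Over all genes tested, 9.53% were higher in isotype against PBS and 8.13% lower in anti–IL-4Rα against isotype. All 4 stress keratins, which mark activated epithelium, were higher in the isotype group and lower with anti–IL-4Rα. The rise of Krt17 (0.37, SE 0.12, adjusted p = 0.0404) was lost in 4 of 10 alternatives (adjusted p = 0.0543 to 0.0899) and without PBS library 1, 2, 4 or 5 or isotype library 1, 2, 3 or 5 (0.0558 to 0.0988). With the basal epithelium score as a covariate, all 4 lost the call with anti–IL-4Rα against isotype (0.306 to 0.401). Their log2 fold changes were then -1.74 for Krt16 (-2.57 without it), -0.53 for Krt6b (-0.88), -0.41 for Krt6a (-0.75) and -0.48 for Krt17 (-0.59). Krt16 had log2 fold changes of 3.18 (SE 0.45, adjusted p = 0.00108) and -2.57 (SE 0.44, adjusted p = 0.00479). The summed level of the list was 3067 to 4220 CPM in the PBS libraries, 5065 to 6610 CPM in the isotype libraries and 2725 to 3917 CPM in the anti–IL-4Rα libraries, and its most abundant gene was Krt6a. Of 14 genes of epidermal differentiation, 0 were called in isotype against PBS. There, 0 to 3 were lower over the alternatives and 0 to 2 with 1 library left out. One of the list, Ivl, was lower with anti–IL-4Rα (-0.56, SE 0.13, adjusted p = 0.019). It was not called without isotype library 3 (-0.47, adjusted p = 0.0547) or anti–IL-4Rα library 1 (-0.51, adjusted p = 0.0519). Ivl was not called with only the 2 groups fitted (0.0624) or with the lacrimal (0.0577) or basal epithelium covariate (-0.30, adjusted p = 0.542). Of 13 genes of the IL-4 receptor pathway, 8 were higher in the isotype group and 7 lower with anti–IL-4Rα. The 8 ranged from 5 to 8 over the alternatives and from 5 to 9 with 1 library left out, and the 7 from 1, with the basal epithelium covariate, to 8 and from 4 to 10. Its target Chil4 had a mean of 0.0282 CPM in the PBS group, 116 CPM in the isotype group and 0.00774 CPM in the anti–IL-4Rα group.

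Markers of other tissue also differed between libraries. Of 7 basal epithelium genes, 2 were higher in the isotype group and 3 lower with anti–IL-4Rα, beside 9.53% and 8.13% of all genes. The 2 became 1 in some alternatives and without some libraries, as the rise of Itga6 (0.20, SE 0.06, adjusted p = 0.0341) was lost in 4 of 10 alternatives and without 7 of 15 libraries. The 3 became 1 without isotype library 3, where Trp63 (adjusted p = 0.0655) and Itga6 (0.0566) were not called, and 0 with the basal epithelium covariate. That covariate is the score of this list itself, so the last count cannot show how stable the 3 are. The 7 genes summed to 12193 to 14652 CPM in the PBS libraries, 12491 to 15792 CPM in the isotype libraries and 9812 to 13457 CPM in the anti–IL-4Rα libraries. Krt5 was the most abundant and 0 of the 7 were at 0. The lacrimal acinar list, led by Mucl2, summed to 135, 5264, 235, 10870 and 76147 CPM in the PBS libraries, 48122, 167, 9400, 41714 and 6522 CPM in the isotype libraries, and 172653, 89822, 1875, 230329 and 220237 CPM in the anti–IL-4Rα libraries. Of 13 lacrimal genes tested, 1, Aqp5, was called higher in anti–IL-4Rα against isotype (0.48, SE 0.15, adjusted p = 0.0444), beside 6.73% of all genes. Prol1 was at 0 in all libraries. Aqp5 is also in the conjunctival mucosa list, and its call was lost in 6 of 10 alternatives (0.0614 to 0.545) and without 12 of 15 libraries (0.0513 to 0.108). The hair follicle list, led by Tchh, summed to 11480 CPM in isotype library 2 and to 629 to 2043 CPM in the other 14 libraries, with 0 of 11 genes called. Anti–IL-4Rα library 3 held the least lacrimal RNA of its group. Its Klk6 level (58.1 CPM) was the lowest of that group, but only narrowly below library 4 (58.4 CPM). It had the group's highest levels of Klk7 (225), Klk8 (89.3), Klk10 (408), Klk13 (87.7), Klk14 (51.9) and Spink5 (472 CPM). Klk5 stood at 78.5 CPM there, below library 5 (88.3 CPM). With the lacrimal score as a covariate, Klk6 was at -1.68 (adjusted p = 0.000133), Klk13 at -0.94 (adjusted p = 0.00736), Klk7 at -0.74 (adjusted p = 0.00468) and Klk8 at -0.64 (adjusted p = 0.0577) for anti–IL-4Rα against isotype. With the basal epithelium score as a covariate, an alternative chosen after seeing the data, Klk6 was at -1.58 (adjusted p = 0.00907), Klk13 at -0.74 (adjusted p = 0.293), Klk7 at -0.52 (adjusted p = 0.193) and Klk8 at -0.27 (adjusted p = 0.611), and 28 of 19006 genes were called in place of 2826. Of 28 further genes covered by the naming rule and called in that comparison, kallikreins aside, 27 lost their call in some alternative, and 16 did so with this covariate left aside. For isotype against PBS, the rises of Klk6, Klk13 and Klk7 were called with either covariate. The part of the other tissues in the levels of the kallikreins was not tested further.

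Other lists held markers of muscle, cornea, leukocytes and glands. Their counts stand beside 9.53% of all genes higher and 7.49% lower in isotype against PBS. For anti–IL-4Rα against isotype, these shares were 6.73% and 8.13%. Of 10 skeletal muscle genes, 8 were lower in the isotype than in the PBS group and 0 were called with anti–IL-4Rα against isotype. The 8 ranged from 5 to 9 over the alternatives and from 6 to 9 with 1 library left out. Their sum was 6703 to 12271 CPM with PBS, 4102 to 6260 CPM with isotype and 5280 to 7821 CPM with anti–IL-4Rα, Myh4 was the most abundant, and none was at 0. Of 5 corneal epithelium genes, led by Aldh3a1, 3 were lower in the isotype than in the PBS group and 1, Krt12, was higher with anti–IL-4Rα than with isotype (3.55, SE 0.96, adjusted p = 0.0293). Of the 3, Ppargc1a (-0.48, SE 0.13, adjusted p = 0.0261) is not specific to cornea. With a replicate block the 3 became 1, as Slurp1 (0.0513) and Ppargc1a (0.0674) were not called. Krt12, at 12.3 ± 19.6 CPM with anti–IL-4Rα, lost its call in 5 of 10 alternatives and without 4 of 15 libraries (0.06 to 0.508). Without anti–IL-4Rα library 1, its value was 1.79 (adjusted p = 0.101). The list summed to 902 to 1203 CPM with PBS, 473 to 925 CPM with isotype and 775 to 1142 CPM with anti–IL-4Rα. Muscle and corneal sums were thus lowest by their range in the group where Klk6 was highest, and their part in its level was not tested. Of 6 neutrophil genes, 2 were higher with isotype and 1, Csf3r, was lower with anti–IL-4Rα. Of the 2, Cxcr2 (0.51, SE 0.16, adjusted p = 0.0439) lost its call in 4 of 10 alternatives and without 12 of 15 libraries (0.0507 to 0.102). The fall of Csf3r (-1.53) was not called with the basal epithelium covariate, where it stood at -1.17 (adjusted p = 0.293). Of 7 goblet cell genes, 2 were higher with isotype and 1, Clca1, was lower with anti–IL-4Rα (-3.45). Clca1 was scarce, with means of 0.415, 1.74 and 0.155 CPM in the PBS, isotype and anti–IL-4Rα groups. With the basal epithelium covariate, Clca1 stood at -3.03 and was not called (adjusted p = 0.161). Of 8 conjunctival mucosa genes 2 were higher, Pax6 (0.43, SE 0.13, adjusted p = 0.039) and again Aqp5, and of 10 pan-epithelial genes 1 was higher and 1 lower, with anti–IL-4Rα against isotype, and 0 of either list were called in isotype against PBS. The higher pan-epithelial gene, Krt18 (1.16, SE 0.32, adjusted p = 0.0313), lost its call with only the 2 groups fitted (0.0705). It also did so in the linear model (0.0538) and with the basal epithelium covariate (0.47, adjusted p = 0.7). Without isotype library 2, 3 or 5 or anti–IL-4Rα library 1, 2, 4 or 5, its adjusted p was 0.0535 to 0.0776. The lower one, Grhl3 (-0.54, adjusted p = 0.0119), was not called with the basal epithelium covariate (-0.22, adjusted p = 0.469). Pax6 lost its call in 6 of 10 alternatives (0.0532 to 0.582) and without 9 of 15 libraries (0.0503 to 0.097). Of 12 meibomian gland genes, 0 were called in either comparison.

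**Figure D4:**
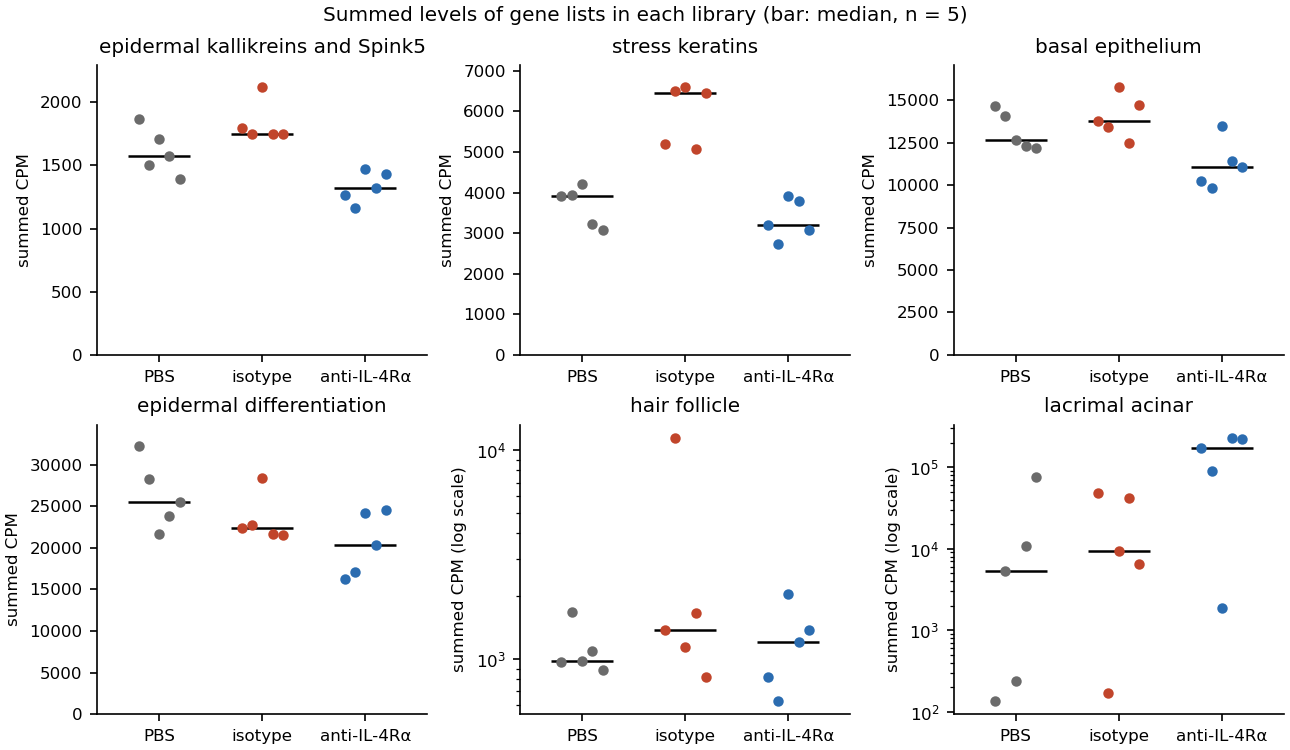
Summed CPM of 6 gene lists in each library by group; bars are medians, and the hair follicle and lacrimal acinar axes are logarithmic. The kallikrein and Spink5 sum is 1394 to 1871 CPM with PBS, which overlaps both others, 1745 to 2123 CPM with isotype and 1160 to 1471 CPM with anti–IL-4Rα, and the lacrimal sum spreads from 135 to 230329 CPM.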

How the data were processed

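Stranded, paired-end mRNA libraries had been mapped by the authors to the B38 genome in Omicsoft Array Studio; reads are described as mapped uniquely, but its version, how reads were assigned to genes and whether strand was used are not given in the sources used here. The authors deposited estimated counts per gene, with no scaling for depth. These were rounded. Genes that reached 10 counts in 5 or more libraries were tested with edgeR 4.0.16 in R 4.3.3 (TMM factors, quasi-likelihood F test, 1 model with a term per group, two-sided), with Benjamini-Hochberg adjustment over all 19006 genes. The SE of a log2 fold change came from its F statistic. Within-library ratios were compared by exact permutation tests in scipy 1.17.1. Exon lengths and positions came from GENCODE M21 for GRCm38, older than the authors' gene model, to which 55227 gene identifiers were matched and 260 were not. The members and all 21 gene lists were chosen with earlier results of these data known. All 8 members were described, and from each other list at most the 4 called genes with the largest changes and the 2 uncalled genes of highest CPM could be named, with the exceptions of Tmprss13, of Myh4 as the most abundant of its list and of 4 genes without counts. Alternatives were upper quartile factors, DESeq2 1.42.0, a linear model on log2(FPKM + 1), other filters, robust estimation, 2-group fits, a replicate block, covariates and leaving out each library. The basal epithelium covariate and the ratios to Spink5 were added after seeing the data.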

Additional observations from a re-analysis of the deposited data

Results flagged for a closer look

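A library was set apart where its gap to the nearest other library of its group took most of the group's range (a ratio above 0.71 for 5 libraries). Chance sets apart about 1 in 20 groups, and 84 groups were checked. Isotype library 3 stood above the rest of its group for Klk5 (119 CPM, others 84 to 91.2), Klk8 (165 CPM, others 102 to 118), Klk9 (143 CPM, others 70.6 to 80.2), the ratio of Klk10 to Spink5 (3.79, others 3.3 to 3.4) and the summed epidermal differentiation list (28336 CPM, others 21554 to 22733). Their common source in that library was not tested. PBS library 1 stood above its group for Klk7 (318 CPM, others 233 to 255). The lacrimal acinar sum was high in PBS library 5 (76147 CPM, others 135 to 10870), and the hair follicle sum was high in PBS library 2 (1680 CPM, others 883 to 1096) and in isotype library 2 (11480 CPM, others 822 to 1667).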

How the results depend on the processing

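Genes called among all tested numbered 3235 for isotype against PBS, 2115 (replicate block) to 4487 (lacrimal covariate) over 10 alternatives, and 1863 (without isotype library 3) to 3936 (without isotype library 1). For anti–IL-4Rα against isotype they numbered 2826, 28 (basal covariate) to 4045 (DESeq2), and 882 (without isotype library 3) to 4206 (without anti–IL-4Rα library 3). For anti–IL-4Rα against PBS they numbered 707, 48 (basal covariate) to 1966 (DESeq2), and 82 (without PBS library 1 or 2) to 2029 (without anti–IL-4Rα library 3). The shares of all genes given beside the counts move with these. The count of 3 genes higher in isotype against PBS was 3 under all 10 alternatives and 2 to 3 without 1 library. The count of 4 lower with anti–IL-4Rα against isotype was 3 to 5 under 9 alternatives, 1 with the basal epithelium covariate, where the cause was not tested, and 3 to 6 without 1 library. The count of 0 for anti–IL-4Rα against PBS was 1 with DESeq2 (Klk5) and 0 to 1 without 1 library. Fitting only the 2 groups compared left Klk8 at an adjusted p of 0.0531 for anti–IL-4Rα against isotype, within a range of 0.00116 to 0.611 over its alternatives.

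Some uncalled values changed sign. For isotype against PBS, Klk14 was 0.01 with the lacrimal covariate, and Klk12 was -0.02 with upper quartile factors and -0.04 with the basal covariate. With the basal covariate, anti–IL-4Rα against PBS gave 0.07 for Klk8 (-0.33 without it), 0.02 for Klk13 (-0.27) and 0.27 for Klk9 (-0.23), and Klk11 was 0.00 (-0.34) for anti–IL-4Rα against isotype; the cause was not tested. Without 1 library, isotype against PBS ran from -0.12 to 0.05 for Klk5, from -0.17 to 0.03 for Klk14, from -0.16 to 0.01 for Klk11 and from -0.07 to 0.10 for Klk12, and anti–IL-4Rα against isotype from -0.02 to 0.07 for Spink5.

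Of the genes outside the kallikreins and Spink5 that the naming rule took and that were called, 6 of 29 in isotype against PBS and 15 of 28 in anti–IL-4Rα against isotype lost the call without some library, and 0 changed sign. Replicate numbers did not pair the libraries: r between same-numbered libraries ran from -0.385 to 0.454, and 4 of 15 libraries correlated best with their own number. With the replicate block, the counts were 3, 4 and 0. Every member had at least 1410 counts in every library, so that depth limits Klk1 more than the members.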
